A study of Mus musculus with 26 samples.

Results

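Nuclear RNA was compared between sorted astrocyte nuclei and the unsorted nuclei of the same mouse line, in 8 of the 26 libraries of the series. The sorted libraries were 4, from 2 males and 2 females, and the presort libraries were also 4, again from 2 males and 2 females. Libraries were chosen by their titles, which give the sort state, the sex and the line, and are named here by the number in the title (sorted 6, 8, 30 and 32 against presort 5, 7, 29 and 31). All 8 came from whole brain of mice aged 6 to 12 weeks of the strain JD130Htz/J, whose full name opens with B6.FVB-Tg(Aldh1L1-EGfp/Rpl10a). In this line sequences of Aldh1l1, an astrocyte gene of folate metabolism, drive a fusion of enhanced green fluorescent protein (GFP) to the ribosomal protein Rpl10a, and the presort nuclei carried the same transgene as the sorted ones. Each replicate was 1 mouse and presort RNA was taken from each mouse, per the series' design text. The matching lines for neurons (Snap25 driver, JD362Htz/J) and oligodendrocytes (Cnp driver, JD368Htz/J), with 4 sorted and 4 presort libraries each, serve here only to show where the astrocyte sort differed. How the nuclei were sorted is not given in the sources used here.

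Astrocytes take up glutamate and GABA from synapses, buffer potassium, pass ions and metabolites through gap junctions, and supply lipids and secreted proteins to neurons. They keep transcription factors and receptors of the radial glia from which they arise, among them Sox9, Notch receptors and the hedgehog receptor Ptch1. Nuclear RNA holds newly made and retained transcripts, so a nuclear level is not a level of mature messenger RNA. In bulk nuclei, fewer cells of a type and less RNA per cell cannot be told apart.

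Values are in CPM, counts per 1000000 counts of the same library, and values of single libraries stand in the order sorted 6, 8, 30 and 32 and presort 5, 7, 29 and 31. Fold changes are on the log2 scale, sorted over presort, from edgeR's quasi-likelihood test, and a gene was called at a Benjamini-Hochberg adjusted p under 0.05. Total counts ran from 134357 to 3239445 in the sorted libraries and from 147826 to 3274488 in the presort libraries. Depth did not follow the sort state in every library: sorted 30 had 134357 counts, far below the other sorted libraries, and presort 29 had 3274488, far above the other presort libraries. Marker genes of both followed their labels, as the values of each library show below. Xist, the transcript of the inactive X chromosome, averaged 7553 CPM in sorted and 6161 CPM in presort nuclei of females, and 14.3 and 12.3 CPM in those of males, as the labels of sex give it.

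The sort label was checked first on the transgene and its driver. GFP had 847, 436, 327 and 403 CPM in sorted nuclei, against 108, 139, 77.3 and 101 CPM in presort nuclei. Aldh1l1 had 325, 183, 253 and 169 CPM in sorted nuclei, against 54.1, 13, 15.9 and 46.1 CPM in presort nuclei. Rpl10a had 229.8, 203, 194 and 208 CPM in sorted nuclei, against 33.8, 95.4, 61.7 and 62.9 CPM in presort nuclei. All 3 were higher in every sorted library than in any presort library. The log2 fold change was 2.55 ± 0.33 (SE), adjusted p = 6.63e-06 for GFP, 3.36 ± 0.42 (SE), adjusted p = 3.58e-06 for Aldh1l1, and 1.93 ± 0.30 (SE), adjusted p = 4.61e-05 for Rpl10a. Reads of the endogenous Rpl10a gene and of the Rpl10a portion of the fusion cannot be told apart in these counts.

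The promoter of Aldh1l1 is printed because its gene gave the line its driver, and that of Hes5 because Hes5, an effector of Notch signalling, had the largest fold change among the astrocyte transcription factors tested. Both windows run from 250 bases before to 50 bases after the annotated start (RefSeq, GRCm38.p6, plus strand): chr6:90550543-90550842 for Aldh1l1 and chr4:154960673-154960972 for Hes5. Capitals mark TGGGAA on either strand, the core bound by RBPJ, the DNA-binding partner of Notch.
Aldh1l1: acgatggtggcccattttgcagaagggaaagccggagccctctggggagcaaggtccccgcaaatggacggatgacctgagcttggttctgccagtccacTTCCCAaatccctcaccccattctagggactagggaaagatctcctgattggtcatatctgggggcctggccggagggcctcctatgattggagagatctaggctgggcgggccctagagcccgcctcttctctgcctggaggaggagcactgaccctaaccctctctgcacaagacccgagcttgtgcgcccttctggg
Hes5: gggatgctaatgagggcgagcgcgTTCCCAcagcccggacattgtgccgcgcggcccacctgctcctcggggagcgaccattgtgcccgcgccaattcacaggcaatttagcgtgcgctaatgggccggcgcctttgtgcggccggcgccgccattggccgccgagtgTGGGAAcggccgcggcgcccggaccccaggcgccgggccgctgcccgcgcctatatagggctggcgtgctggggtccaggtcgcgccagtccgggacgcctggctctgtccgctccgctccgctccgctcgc
The Aldh1l1 window held 1 match and the Hes5 window held 2. A match was found in 28.3% of the 27025 genes with a promoter in the RefSeq table, and in 34% of the 94 genes of the astrocyte lists that were higher in sorted nuclei and had an entry there. TGGGTGGTC, a core of the hedgehog factors GLI, and the palindrome of the NFI factors, TTGGC and GCCAA 5 bases apart, were each found in 0 of those 94 promoters, against 0.289% and 0.0444% of all genes.

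**Figure D1:**
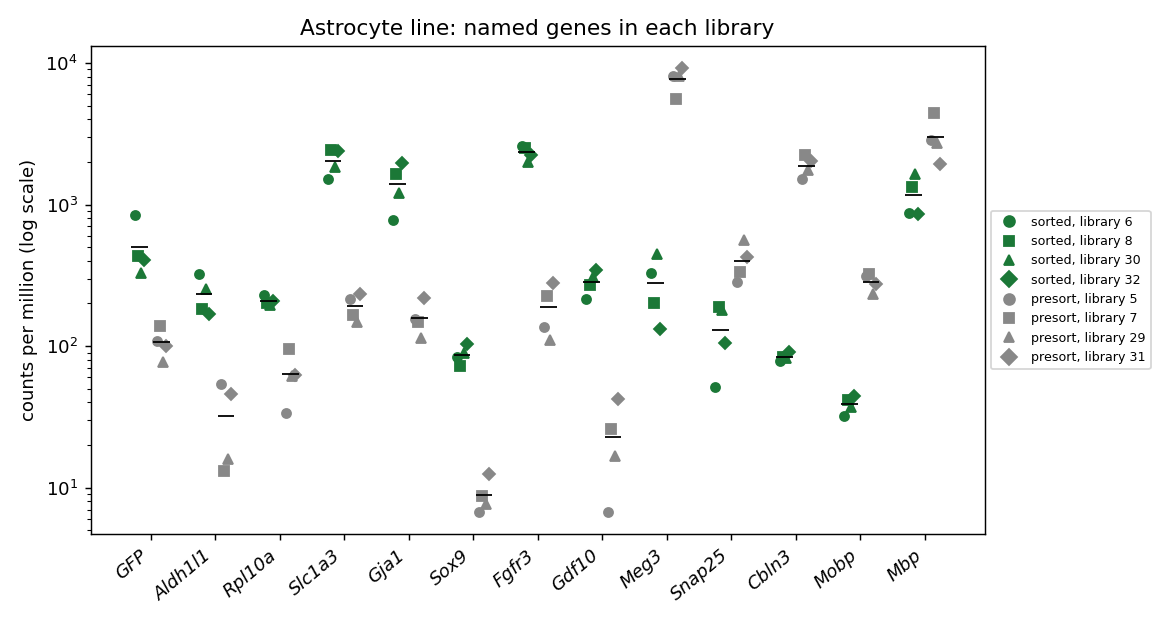
CPM (log scale) of 13 genes in each astrocyte-line library, with sorted libraries in green left of presort libraries in grey; symbols give the library and black lines the group means. GFP, Aldh1l1 and the astrocyte genes up to Gdf10 lie higher in all 4 sorted libraries, and Meg3, Snap25, Cbln3, Mobp and Mbp lie lower in all 4.

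Sorting changed nuclear RNA widely. Of 11026 genes tested, 1514 (13.7%) were higher and 1679 (15.2%) were lower in sorted nuclei, so that 29% were called in either direction. These shares are the background for the counts of each gene list in the 8 libraries below. The difference exceeded 2-fold for 1386 of the higher and 1571 of the lower genes, and the median log2 fold change over all genes tested was -0.03. In CPM, every sorted library lay above every presort library for 9.54% of the genes tested and below for 18.6%. These shares lack the TMM scaling, whose factors were lower in every sorted than in every presort library. Their imbalance therefore cannot be read as an excess of genes lower in sorted nuclei. The counts rest on the deep libraries: without presort 29 only 5223 genes could be tested, with 893 higher and 943 lower. Without sorted 32 the counts were 948 and 1063, without sorted 8 964 and 1039, and without sorted 6 1025 and 1104.

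Astrocyte genes were higher in sorted nuclei almost throughout. The 6 astrocyte lists together hold 130 genes in the table, of which 127 were tested. Of these, 118 were higher, 2 were lower and 7 did not pass the threshold, with a median log2 fold change of 2.80. All 4 sorted libraries lay above all 4 presort libraries for 110 of the 127, or 86.6%.

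Transporters and enzymes that clear glutamate, GABA and glycine rose in 15 of 16 tested members, with a median of 2.52. Slc1a3 (GLAST), a glutamate transporter, had 1505, 2424, 1853 and 2397 CPM in sorted nuclei, against 216, 165, 149 and 235 CPM in presort nuclei. Slc1a2 (GLT-1), the main glutamate transporter of the forebrain, had 13881, 14285, 12884 and 14630.0 CPM in sorted nuclei, against 2043, 1998, 1571 and 2391 CPM in presort nuclei. Both were several times higher in each sorted library, with log2 fold changes of 3.67 ± 0.28 (SE), adjusted p = 2.04e-08 for Slc1a3 and 3.03 ± 0.24 (SE), adjusted p = 2.41e-08 for Slc1a2. Slc6a11 (GAT-3), which takes up GABA, had 2123, 1659, 1816 and 2979 CPM in sorted nuclei, against 291, 264, 103 and 298 CPM in presort nuclei. Slc7a10, which carries small neutral amino acids such as D-serine and glycine, had 397, 351, 365 and 438 CPM in sorted nuclei, against 54.1, 26, 22.9 and 46.1 CPM in presort nuclei. For these the log2 fold changes were 3.46 and 3.80, the second being the largest of the list. Slc6a9 (GLYT1), a glycine transporter, rose by 2.49, with sorted 32 at 2061 CPM and the other sorted libraries between 701 and 1057. Glul, which makes glutamine from glutamate, rose less, at 1.63 ± 0.27 (SE), adjusted p = 9.08e-05. Aldh5a1, an enzyme that breaks down GABA, was the member that did not pass, at 0.66 (adjusted p = 0.117).

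Channels, pumps and connexins of the endfeet and the astrocyte network rose in 15 of 17 tested members (median 2.71). Aqp4, the water channel of astrocyte endfeet, had 722, 1249, 1139 and 1299 CPM in sorted nuclei, against 27.1, 65.0, 88.3 and 122 CPM in presort nuclei. Kcnj10 (Kir4.1), which buffers potassium, had 706, 949, 908 and 1504 CPM in sorted nuclei, against 162, 204, 172 and 226 CPM in presort nuclei. Their log2 fold changes were 4.0 ± 0.34 (SE), adjusted p = 8.71e-08 for Aqp4 and 2.65 ± 0.28 (SE), adjusted p = 6.56e-07 for Kcnj10, and neither overlapped between the groups. Gja1 (connexin 43) had 782, 1637, 1198 and 1952 CPM in sorted nuclei, against 156, 147, 113 and 218 CPM in presort nuclei, and Gjb6 (connexin 30), the other main astrocyte connexin, rose by 2.87. Sorted 6 was the lowest sorted library for Aqp4, Kcnj10 and Gja1. Gjb2 (connexin 26) at 0.74 (adjusted p = 0.164) and the chloride channel gene Clcn2 at 0.59 (adjusted p = 0.203) were the members that did not pass. Without sorted 6, Gjb2 passed the threshold (log2 fold change 1.0, adjusted p = 0.0329).

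Transcription factors were mixed, with 21 of 24 tested members higher, 1 lower and a median of 2.22. Hes5 had 41.4, 89.4, 74.4 and 117 CPM in sorted nuclei, against 0, 8.67, 3.05 and 16.8 CPM in presort nuclei. Rfx4, a winged-helix factor of astrocytes and ependyma, had 282, 198, 216 and 173 CPM in sorted nuclei, against 6.76, 4.33, 19.2 and 33.6 CPM in presort nuclei. Sox9, which specifies astrocytes, had 83.1, 72.2, 89.3 and 103 CPM in sorted nuclei, against 6.76, 8.67, 7.63 and 12.6 CPM in presort nuclei. The sorted libraries lay above the presort libraries for each of the 3, and the log2 fold changes were 4.20 ± 0.58 (SE), adjusted p = 1.21e-05 for Hes5, 3.83 ± 0.40 (SE), adjusted p = 5.00e-07 for Rfx4 and 3.58 ± 0.40 (SE), adjusted p = 9.52e-07 for Sox9. The hedgehog factors Gli1, Gli2 and Gli3 rose by 2.92, 3.78 and 3.72. Nfia and Nfib, factors that start astrocyte formation and that neurons express too, rose by 1.15 and 0.66. Nfib lost its call without any 1 of the presort libraries (adjusted p of 0.0693 to 0.109).

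A related factor did not follow. Nfix had 48.6, 40.2, 37.2 and 63.3 CPM in sorted nuclei, against 101, 82.4, 66.9 and 117 CPM in presort nuclei, with a log2 fold change of -0.61 (adjusted p = 0.183). In CPM every sorted library lay below every presort library. With the TMM factors of sorted 32 (0.885) and presort 29 (1.06), those libraries overlap. Zic1, a zinc finger factor of the cerebellum that granule cells express strongly, had 153, 126, 201 and 145 CPM in sorted nuclei, against 460.0, 707, 270.0 and 339.7 CPM in presort nuclei. It was the member that fell, at -1.29 ± 0.29 (SE), adjusted p = 0.00185. Id1 had 8.53, 26.9, 14.9 and 31.2 CPM in sorted nuclei, against 0, 0, 13.1 and 50.3 CPM in presort nuclei and was not called, at 0.67 (adjusted p = 0.521). Without sorted 8 or without presort 29 the number of factors called higher was 13, since fewer of them could be tested.

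Receptors and signalling genes rose in 21 of 23 tested members and fell in 1 (median 2.42). Fgfr3, the fibroblast growth factor receptor most typical of astrocytes, had 2601, 2508, 2002 and 2238 CPM in sorted nuclei, against 135, 225, 111 and 281 CPM in presort nuclei. Gpr37l1, a receptor of astrocytes, had 1830.2, 2394, 2642 and 4835 CPM in sorted nuclei, against 284, 429, 192 and 327 CPM in presort nuclei. Ntsr2, a neurotensin receptor, had 1025, 1109, 968 and 1484 CPM in sorted nuclei, against 142, 191, 66.3 and 147 CPM in presort nuclei. No sorted library overlapped the presort range for any of these, and the log2 fold changes were 3.89 ± 0.31 (SE), adjusted p = 3.83e-08 for Fgfr3, 3.50 ± 0.34 (SE), adjusted p = 2.23e-07 for Gpr37l1 and 3.38 ± 0.32 (SE), adjusted p = 2.01e-07 for Ntsr2. Lgr6, a receptor for R-spondins, had 63.1, 49.6, 119 and 123 CPM in sorted nuclei, against 0, 0, 7.33 and 8.39 CPM in presort nuclei and the largest fold change of the list, at 4.02. Among the fibroblast growth factor receptors, Fgfr2 rose by 2.11 and Fgfr1 by 1.16. Notch1 and Notch2 rose by 2.79 and 2.28. Acvr1b, an activin receptor, had 34.5, 30.8, 22.3 and 38.0 CPM in sorted nuclei, against 129, 134, 104 and 83.9 CPM in presort nuclei, and fell at -1.49 ± 0.31 (SE), adjusted p = 8.22e-04. The purinergic receptor P2ry1 did not pass, at 1.05 (adjusted p = 0.182).

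Genes of metabolism and lipids rose in each of the 26 tested members, between 1.43 and 4.31 on the log2 scale (median 3.09). Cyp4f15, a fatty acid hydroxylase, led the list with 108, 190.1, 156 and 155 CPM in sorted nuclei, against 13.5, 13, 7.33 and 8.39 CPM in presort nuclei. Apoe, the lipid carrier of the brain, had 4009, 8104, 7041 and 13234 CPM in sorted nuclei, against 994, 1816, 751 and 1577 CPM in presort nuclei. Clu (clusterin), a secreted chaperone, had 1744, 4005, 2344 and 4258 CPM in sorted nuclei, against 203, 603, 286 and 469.8 CPM in presort nuclei. The sorted libraries were above the presort libraries for each of these, and sorted 32 had the highest and sorted 6 the lowest sorted level of Apoe. The log2 fold changes were 4.31 ± 0.39 (SE), adjusted p = 1.56e-07 for Cyp4f15, 2.89 ± 0.35 (SE), adjusted p = 2.68e-06 for Apoe and 3.21 ± 0.36 (SE), adjusted p = 9.82e-07 for Clu. Acsbg1 and Plpp3, enzymes of lipid metabolism, and Mertk, a receptor for the uptake of cell debris, rose by 3.55, 3.53 and 3.67. Aldoc, a glycolytic enzyme that Purkinje cells also express, rose by 2.08. Etnppl, which breaks down phosphoethanolamine, varied among the sorted libraries: it had 425, 511, 164 and 174 CPM in sorted nuclei, against 74.4, 26, 11.9 and 4.19 CPM in presort nuclei. Males (the first 2 values of each group) were higher than females in both groups for this gene, a difference not tested by itself.

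Secreted and matrix genes rose in 20 of 21 tested members (median 3.20). Htra1, a secreted protease, had 539, 1373, 669.9 and 1171 CPM in sorted nuclei, against 47.4, 121, 41.2 and 83.9 CPM in presort nuclei. Mfge8, which bridges dying cells to phagocytes, had 1176, 2627, 1570.4 and 3359.8 CPM in sorted nuclei, against 81.2, 312, 112 and 185 CPM in presort nuclei. Gdf10, a growth factor made by Bergmann glia, had 216, 269, 305 and 343 CPM in sorted nuclei, against 6.76, 26, 16.8 and 41.9 CPM in presort nuclei. All 3 were higher in each sorted library, with log2 fold changes of 3.99 ± 0.39 (SE), adjusted p = 2.60e-07 for Htra1, 3.91 ± 0.41 (SE), adjusted p = 4.81e-07 for Mfge8 and 3.91 ± 0.38 (SE), adjusted p = 2.16e-07 for Gdf10. Thbs4, a synapse-promoting thrombospondin, rose by 4.19 and Sparcl1 (hevin) by 3.08. Gpc4, a glypican that recruits glutamate receptors, was the member that did not pass, at 1.16 (adjusted p = 0.11). It passed without presort 5 (log2 fold change 1.52, adjusted p = 0.0411).

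**Figure D2:**
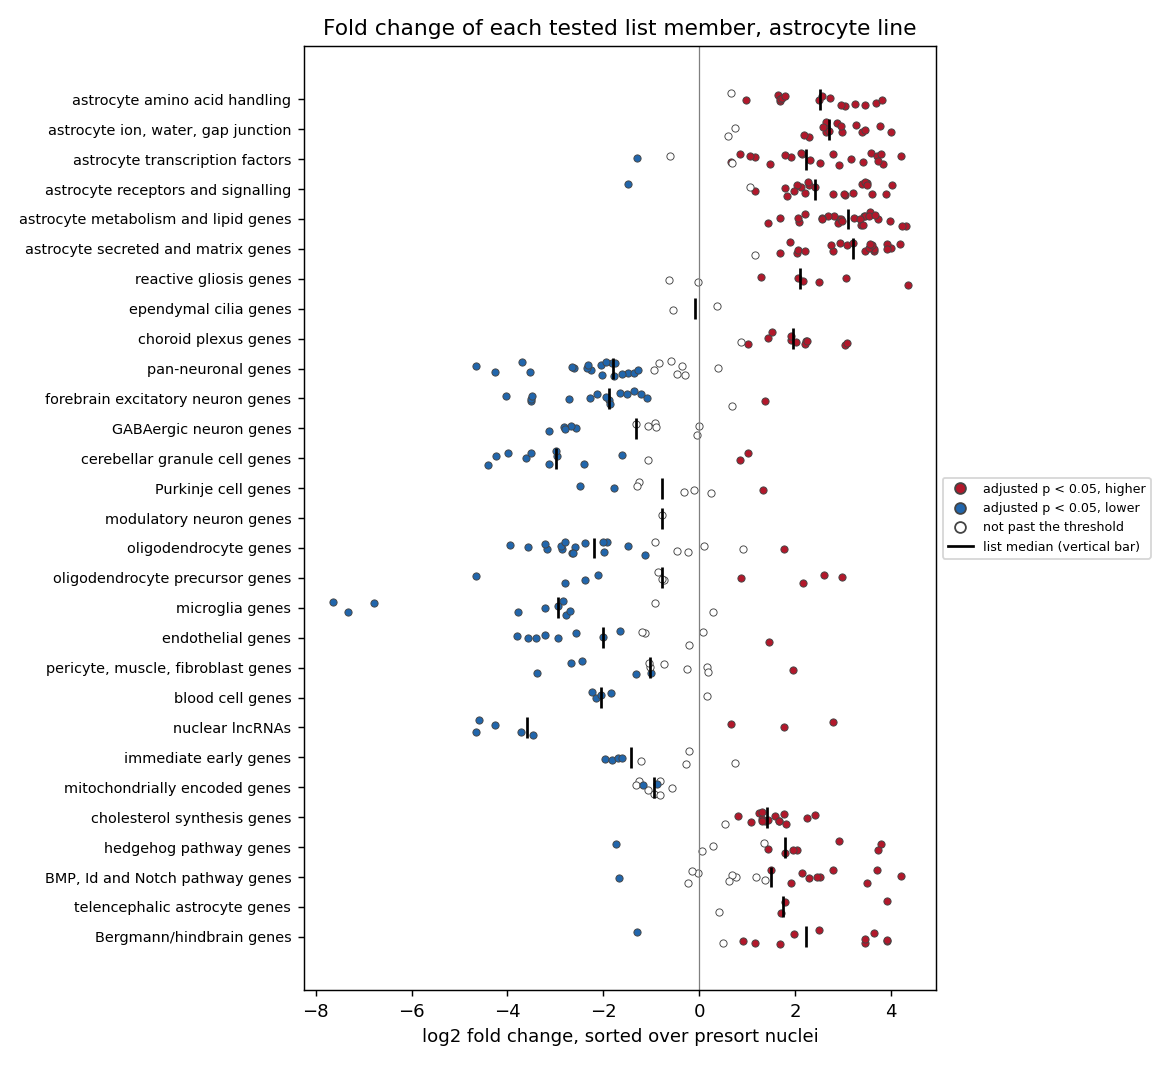
Log2 fold change, sorted over presort nuclei, of each tested member (points) of the 29 gene lists (rows), filled where the adjusted p was under 0.05; vertical bars are list medians. The 6 astrocyte lists have medians between 2.22 and 3.20, and the neuron, oligodendrocyte, microglia and vascular lists have medians below 0.

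Genes raised in reactive gliosis were called higher in 6 of 8 tested members, although no injury is given in the labels. Tnc, an extracellular matrix protein, had 277, 207, 625 and 354 CPM in sorted nuclei, against 13.5, 8.67, 24.4 and 21.0 CPM in presort nuclei. Gfap, the intermediate filament protein of astrocytes, had 173, 137, 179 and 211 CPM in sorted nuclei, against 60.9, 69.4, 37.0 and 29.4 CPM in presort nuclei. The log2 fold changes were 4.34 ± 0.40 (SE), adjusted p = 1.56e-07 for Tnc and 2.16 ± 0.33 (SE), adjusted p = 3.24e-05 for Gfap. Vim (vimentin), the other filament gene of the list, had 24.7, 33.6, 0 and 49.7 CPM in sorted nuclei, against 40.6, 43.3, 26.6 and 58.7 CPM in presort nuclei and was not called, at -0.03 (adjusted p = 0.977). S1pr3, a receptor for sphingosine 1-phosphate, was also not called, at -0.64 (adjusted p = 0.436).

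Regional lists, which share members such as Mfge8, Gdf10 and Slc6a11 with the astrocyte lists, rose as well. Of the Bergmann glia and hindbrain list, 10 of 12 tested members were higher and 1, Zic1, was lower (median 2.23), and of the telencephalic list 3 of 4 were higher (median 1.74). The summed level of the Bergmann glia and hindbrain list averaged 7131 ± 1428 CPM in sorted and 2196 ± 347 CPM in presort nuclei (SD, n = 4 each). The telencephalic list averaged 2438 ± 953 CPM in sorted and 299.5 ± 109 CPM in presort nuclei. Mfge8 alone averaged 2183 CPM of this in sorted and 172 CPM in presort nuclei. Pathway lists, which share Gli1, Ptch1, Notch1, Hes5 and others with the astrocyte lists, followed. Of the hedgehog genes, 7 of 11 tested were higher and 1 lower (median 1.78). Of the BMP, Id and Notch genes, 10 of 19 tested were higher and 1 lower (median 1.49). Ptch1, the hedgehog receptor and itself a target of the pathway, had 419, 267, 349.8 and 425 CPM in sorted nuclei, against 115, 104, 78.2 and 134 CPM in presort nuclei, a log2 fold change of 2.04 ± 0.29 (SE), adjusted p = 1.33e-05. Cdon, a co-receptor of the same pathway, had 40.9, 27.7, 59.5 and 49.4 CPM in sorted nuclei, against 264, 117, 181 and 109 CPM in presort nuclei and fell, at -1.74 ± 0.34 (SE), adjusted p = 4.06e-04. Without sorted 6, sorted 8, presort 29 or sorted 32, each left out alone, 4 of 6 tested hedgehog genes were called higher. Smad7, an inhibitor of BMP and TGF-beta signalling, was the member of its list that fell, at -1.67 (adjusted p = 0.0214), and Rbpj itself had -0.16 (adjusted p = 0.826). Leaving out 1 library gave 5 to 12 members of that list higher, and 0 lower without sorted 6, sorted 8, presort 29 or sorted 32, when 9 of the list could be tested.

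Cholesterol synthesis genes rose in 15 of 16 tested members (median 1.40). Msmo1, a sterol oxidase, had 125, 285, 223 and 346 CPM in sorted nuclei, against 33.8, 39.0, 61.1 and 71.3 CPM in presort nuclei. Dhcr7, which makes the last step to cholesterol, had 300.1, 541, 469 and 763 CPM in sorted nuclei, against 101, 165, 117 and 130.02 CPM in presort nuclei. Neither gene overlapped between the groups, and the log2 fold changes were 2.41 ± 0.35 (SE), adjusted p = 2.24e-05 for Msmo1 and 2.25 ± 0.31 (SE), adjusted p = 9.62e-06 for Dhcr7. Sorted 6 was the lowest sorted library for both. Lss, lanosterol synthase, did not pass, at 0.54 (adjusted p = 0.281).

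Choroid plexus genes were also higher in sorted nuclei, in 11 of 12 tested members (median 1.96). The choroid plexus is the epithelium that makes cerebrospinal fluid, and Ttr (transthyretin) is its most abundant messenger. Ttr had 421, 4571, 6788 and 6006 CPM in sorted nuclei, against 250.3, 655, 726 and 830.5 CPM in presort nuclei. Sorted 6 lay inside the presort range, and the other 3 sorted libraries lay far above the highest presort library. The log2 fold change was 3.03 ± 0.53 (SE), adjusted p = 1.55e-04. Tmem72 had 46.0, 26.5, 89.3 and 35.2 CPM in sorted nuclei, against 0, 4.33, 4.58 and 16.8 CPM in presort nuclei and rose by 3.09, and Kl (klotho) had 33.3, 71.1, 96.8 and 80.0 CPM in sorted nuclei, against 20.3, 21.7, 17.1 and 29.4 CPM in presort nuclei and rose by 1.91. Kcnj13, a potassium channel, rose by 1.52 and overlapped between the groups. Otx2, the transcription factor that specifies choroid plexus, rose by 1.01 (adjusted p = 0.0278) and lost its call without presort 7, presort 29 or sorted 32. Summed over the list, the sorted libraries ranged from 819 to 7822 CPM and the presort libraries from 501 to 1162 CPM. Most of these sums was Ttr, which averaged 4446 of 5152 CPM in sorted and 615 of 860 CPM in presort nuclei. With 1 library left out, 6 of 6 tested members were called higher without sorted 6, 4 of 4 without sorted 8, 4 of 6 without presort 29 and 2 of 4 without sorted 32. Genes of the motile cilia of ependyma, the other epithelium of the ventricles, were too low to test except for 2 of 15, and neither passed the threshold. Whether choroid plexus nuclei were among the sorted nuclei was not tested.

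**Figure D3:**
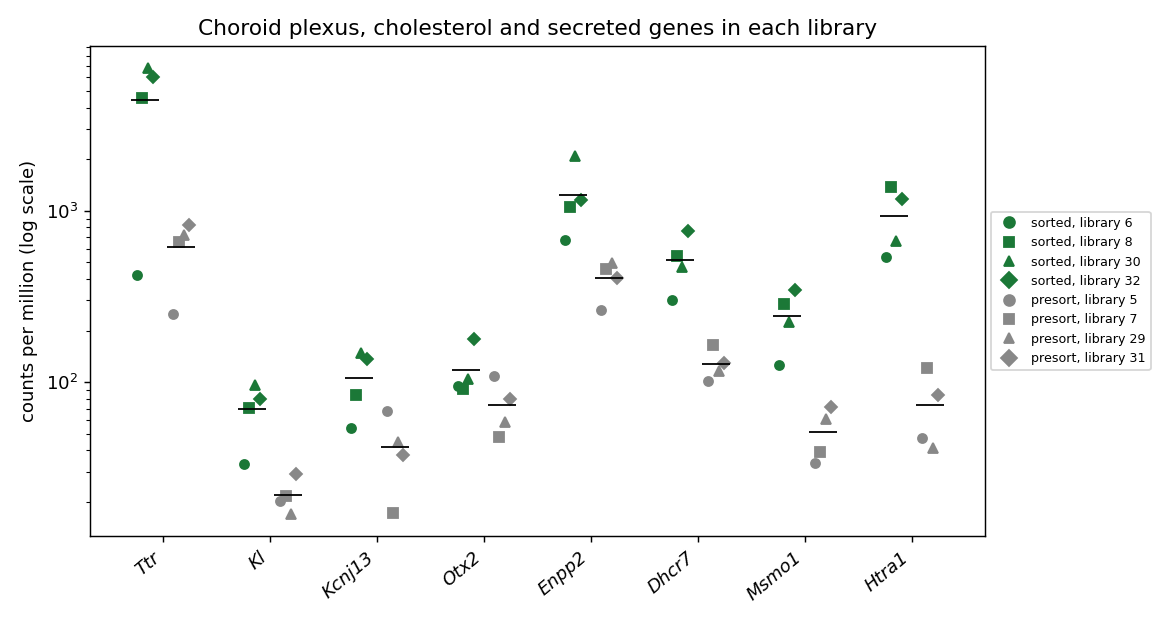
CPM (log scale) of 4 choroid plexus genes (Ttr to Otx2), Enpp2 of the oligodendrocyte list, 2 cholesterol synthesis genes and the secreted gene Htra1 in each library, sorted in green left of presort in grey, with black lines at the group means. Sorted 6 (green circles) has the lowest sorted value for 7 of the 8 genes, and for Ttr it lies at 421 CPM, within the presort range.

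Genes of neurons fell, and most of them steeply. The 6 neuron lists hold 98 genes in the table, of which 74 were tested, 49 were lower and 4 were higher (median -1.78). Meg3, a maternally expressed noncoding RNA abundant in neuronal nuclei, had 328, 201, 447 and 132 CPM in sorted nuclei, against 8097, 5592, 8081 and 9198 CPM in presort nuclei. Cbln3, a secreted protein of cerebellar granule cells, had 78.9, 83.9, 81.9 and 91.4 CPM in sorted nuclei, against 1515, 2237, 1754 and 2022 CPM in presort nuclei. Grin1, the obligatory NMDA receptor subunit, had 82.7, 75.3, 59.5 and 95.7 CPM in sorted nuclei, against 1793, 1998, 1376 and 1137 CPM in presort nuclei. All presort libraries were above all sorted libraries for each of the 3, and the log2 fold changes were -4.65 ± 0.34 (SE), adjusted p = 1.56e-08 for Meg3, -4.24 ± 0.26 (SE), adjusted p = 2.14e-09 for Cbln3 and -4.02 ± 0.28 (SE), adjusted p = 9.45e-09 for Grin1.

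Granule cell genes fell in 10 of 13 tested members (median -2.98), and their summed level was 978 ± 59.2 CPM in sorted and 7204 ± 701 CPM in presort nuclei (SD, n = 4 each), so that 13.6% of the presort level was kept. Of the pan-neuronal list, 19 of 26 fell and none rose (median -1.80), and 18.0% of the summed presort level was kept. Of the forebrain excitatory list, 15 of 17 fell and 1 rose, and 21.8% was kept. The GABAergic list had 5 of 11 lower, with 32.8% kept, and ranged from 2 to 8 called when 1 library was left out. Purkinje cell genes summed to 782 ± 131 CPM in sorted and 821 ± 188 CPM in presort nuclei. Of these, 2 of 8 tested members were lower and 1 higher, against 15.2% and 13.7% of all genes tested. The difference in share kept between the lists was not tested.

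Within these lists, a few genes stayed or rose. Fat2, a giant cadherin of granule cells, had 87.8, 99.9, 119 and 68.2 CPM in sorted nuclei, against 2828, 1942, 1878 and 2357 CPM in presort nuclei and fell by 4.40 on the log2 scale, the most of its list. Grin2c, an NMDA receptor subunit of granule cells that astrocytes also express, had 341, 203, 260.5 and 487 CPM in sorted nuclei, against 209.7, 208, 155 and 209.7 CPM in presort nuclei, a rise of 1.0 (adjusted p = 0.013) that was lost without presort 29 or sorted 32. Pax6, a factor of granule cells and of some astrocytes, rose by 0.84 (adjusted p = 0.0344) and lost its call without any 1 of 6 libraries. Tle4, a corepressor of deep cortical layers, rose by 1.37 (adjusted p = 0.00862), a call lost without presort 29. Map2, a dendritic microtubule protein, had 1841, 1826, 1794 and 1126 CPM in sorted nuclei, against 1515, 1699, 1537 and 1137 CPM in presort nuclei and was not called, at 0.38 (adjusted p = 0.268). Snap25, the driver of the neuron line, had 51.2, 187, 179 and 105 CPM in sorted nuclei, against 284, 334, 559.8 and 424 CPM in presort nuclei, a log2 fold change of -1.49.

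Oligodendrocyte genes fell in 16 of 22 tested members and rose in 1 (median -2.20). Mobp, a myelin protein, had 32, 41.8, 37.2 and 44.5 CPM in sorted nuclei, against 311, 321, 232 and 273 CPM in presort nuclei. Mbp, the myelin basic protein, had 871, 1337, 1637 and 863 CPM in sorted nuclei, against 2868, 4426, 2720.4 and 1921 CPM in presort nuclei. Both were lower in every sorted library, with log2 fold changes of -2.59 ± 0.28 (SE), adjusted p = 6.29e-07 for Mobp and -1.14 ± 0.27 (SE), adjusted p = 0.00291 for Mbp. Cnp, the driver of the oligodendrocyte line, was not called, at -0.46 (adjusted p = 0.289), nor were Trf (transferrin) at 0.09 (adjusted p = 0.864) and the lineage factor Olig1 at -0.23 (adjusted p = 0.755). Enpp2 (autotaxin), which choroid plexus epithelium also expresses, was the member that rose, with 674, 1046, 2077 and 1161 CPM in sorted nuclei, against 264, 459, 497 and 407 CPM in presort nuclei. Sorted 30 was the highest, as for Ttr, and no libraries overlapped (log2 fold change 1.77 ± 0.30 (SE), adjusted p = 1.13e-04). Without presort 29, 7 oligodendrocyte genes were called lower.

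The list of oligodendrocyte precursor genes moved both ways, with 4 of 11 tested members higher and 4 lower. Among all genes tested 13.7% were higher and 15.2% lower. Ptprz1, a receptor phosphatase that astrocytes also carry, had 2009.7, 2837, 2568 and 2597 CPM in sorted nuclei, against 453, 286, 285 and 491 CPM in presort nuclei. Sox6 had 338, 255, 283 and 156 CPM in sorted nuclei, against 67.6, 30.3, 49.8 and 54.5 CPM in presort nuclei. These rose by 2.96 and 2.59. Gpr17, a receptor of committed precursors, had 4.69, 1.56, 7.44 and 4.32 CPM in sorted nuclei, against 67.6, 121, 136 and 109 CPM in presort nuclei, and Pdgfra, the growth factor receptor that defines precursors, had 8.95, 19.9, 81.9 and 17.3 CPM in sorted nuclei, against 81.2, 104, 111 and 113 CPM in presort nuclei. Both fell, at -4.65 ± 0.43 (SE), adjusted p = 1.69e-07 for Gpr17 and -2.11 ± 0.45 (SE), adjusted p = 9.93e-04 for Pdgfra, and for Pdgfra sorted 30 at 81.9 CPM overlapped the presort range. The summed level of the list was 3434 ± 411 CPM in sorted and 1140 ± 38.9 CPM in presort nuclei, of which Ptprz1 averaged 2503 CPM in sorted and 379 CPM in presort nuclei.

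Markers of microglia, vessels and blood fell in 26 of 41 tested genes and rose in 2 (median -2.06). Of the microglia list 9 of 11 tested members fell, and the list summed to 56.7 to 92.9 CPM in sorted and 357 to 559 CPM in presort nuclei. Siglech, a microglial lectin, had 0.853, 0, 0 and 0 CPM in sorted nuclei, against 40.6, 43.3, 27.8 and 67.1 CPM in presort nuclei. Cx3cr1, the fractalkine receptor, had 3.41, 13.3, 14.9 and 7.72 CPM in sorted nuclei, against 81.2, 82.4, 33 and 105 CPM in presort nuclei and fell by 2.79 on the log2 scale. Endothelial genes fell in 8 of 13 tested members and mural and fibroblast genes in 5 of 12. Flt1, an endothelial growth factor receptor, had 16.6, 10.2, 0 and 4.94 CPM in sorted nuclei, against 189, 47.7, 49.8 and 113 CPM in presort nuclei, and Rgs5, a pericyte gene, had 27.7, 12.1, 29.8 and 6.17 CPM in sorted nuclei, against 331, 117, 227 and 143 CPM in presort nuclei. Their log2 fold changes were -2.94 and -3.39.

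Slc2a1 and Pdgfrb were the genes of these lists that rose. Slc2a1 (GLUT1), the glucose transporter of endothelium and astrocytes, had 284, 508, 365 and 696 CPM in sorted nuclei, against 331, 204, 122 and 189 CPM in presort nuclei, with a log2 fold change of 1.45 ± 0.33 (SE), adjusted p = 0.00171. Pdgfrb, a receptor used as a pericyte marker, had 294, 272, 179 and 322 CPM in sorted nuclei, against 108, 78.0, 45.5 and 126 CPM in presort nuclei, with a log2 fold change of 1.96 ± 0.34 (SE), adjusted p = 1.20e-04. Calls in these lists were fewer when a deep library was left out: 2 of 2 tested microglia genes were called lower without sorted 6, sorted 8, presort 29 or sorted 32, each alone.

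**Figure D4:**
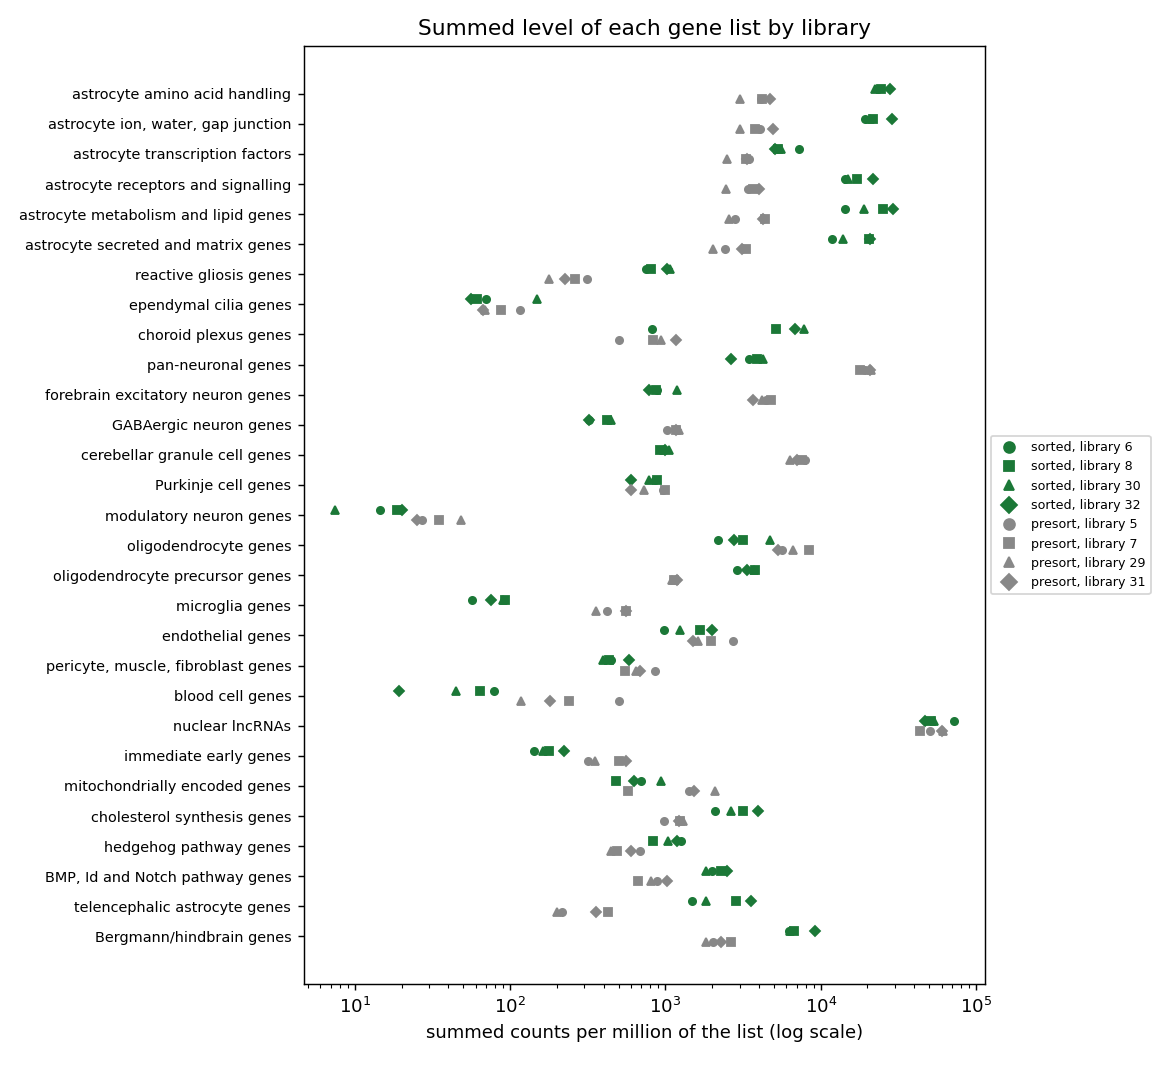
Summed CPM (log scale) of each of the 29 gene lists (rows) in each library, with sorted libraries in green above presort libraries in grey. The astrocyte lists lie higher in all sorted libraries. For the choroid plexus list, whose sum is mostly Ttr, sorted 6 lies at 819 CPM among presort libraries of 501 to 1162 CPM. The Purkinje, endothelial and ependymal cilia lists are among those that overlap.

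Of 8 tested nuclear noncoding RNAs 3 were higher and 5 lower. Neat1, the scaffold of paraspeckles, had 1021, 1524, 1362 and 924 CPM in sorted nuclei, against 446, 347, 337 and 528 CPM in presort nuclei. Malat1, an RNA of nuclear speckles and the most abundant of the list, had 70138, 49617, 51445 and 45471 CPM in sorted nuclei, against 36604, 32728, 45412 and 44761 CPM in presort nuclei. Both were higher in each sorted library, Malat1 by a narrow margin between sorted 32 and presort 29, with log2 fold changes of 1.77 ± 0.25 (SE), adjusted p = 1.82e-05 for Neat1 and 0.67 ± 0.23 (SE), adjusted p = 0.0311 for Malat1. The call on Malat1 was lost without any 1 of 6 libraries. Celrr had 29, 21.9, 29.8 and 21.0 CPM in sorted nuclei, against 6.76, 8.67, 1.53 and 12.6 CPM in presort nuclei, and was also higher, at 2.79 (adjusted p = 0.00191). Rian, Mirg, Miat and Snhg11, noncoding RNAs of neurons, fell, with log2 fold changes of -3.71, -4.60, -3.48 and -4.25. Immediate early genes, which rise with neuronal activity, fell in 4 of 8 tested members, with 1 to 7 called when 1 library was left out. Egr1 had 10.2, 28.1, 29.8 and 39.2 CPM in sorted nuclei, against 67.6, 104, 105 and 209.7 CPM in presort nuclei, a log2 fold change of -1.97.

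Mitochondrially encoded RNAs, which nuclei lack, serve as a measure of cytoplasm carried over. The list summed to 697, 477, 938 and 624 CPM in sorted 6, 8, 30 and 32, and to 1421, 572, 2095 and 1518 CPM in presort 5, 7, 29 and 31. Sorted libraries overlapped presort 7, and 2 of 9 tested members were called lower (median -0.94), against 15.2% of all genes tested. The number called lower was 7 of 9 without presort 7, 4 of 7 without sorted 6, 0 of 6 without presort 29, and 1 without sorted 8, sorted 30 or presort 31. The part of cytoplasmic RNA in the changes above was not tested beyond leaving these genes out, which left 1508 genes higher and 1696 lower.

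The genes with the largest differences, chosen by fold change among those called, not overlapping and at 10 CPM or more in the higher group, included several that no list held. Nat8, an acetyltransferase, had 33.3, 46.1, 37.2 and 55.3 CPM in sorted nuclei, against 6.76, 0, 0 and 0 CPM in presort nuclei. With 1 presort count against 380 sorted counts, the pooled ratio was 179-fold (exact 95% interval 31.9 to 7072, counting error only). The presort count lies in presort 5, a shallow library, and the pooled ratio weights the deep presort 29. The group means were 42.9 CPM in sorted and 1.69 CPM in presort nuclei. Kirrel2, a cell adhesion protein, had 15.8, 26.2, 22.3 and 31.2 CPM in sorted nuclei, against 0, 0, 0.611 and 0 CPM in presort nuclei, a pooled ratio of 48.9-fold (13.4 to 406). Ppp1r3g, which targets a phosphatase to glycogen, had 17.1, 24.6, 14.9 and 19.1 CPM in sorted nuclei, against 0, 4.33, 0.611 and 0 CPM in presort nuclei, a pooled ratio of 26.2-fold (8.80 to 128). In each of these the presort level rests on 3 counts or fewer.

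Others of the 12 largest rises had more presort counts. Cd38, an enzyme that consumes NAD, had 191, 237, 119 and 147 CPM in sorted nuclei, against 20.3, 17.3, 7.02 and 0 CPM in presort nuclei, a log2 fold change of 4.58 ± 0.48 (SE), adjusted p = 4.79e-07. Ccdc190 had 135, 145, 134 and 132 CPM in sorted nuclei, against 0, 17.3, 6.41 and 8.39 CPM in presort nuclei, nearly equal in the sorted libraries, and a log2 fold change of 4.39 ± 0.43 (SE), adjusted p = 2.60e-07. Dao, which degrades D-serine, had 40.5, 30.8, 59.5 and 21.3 CPM in sorted nuclei, against 0, 0, 1.53 and 0 CPM in presort nuclei, a log2 fold change of 4.94 ± 0.65 (SE), adjusted p = 7.13e-06. Aqp9, a channel for water and glycerol, rose by 4.51 and Sfrp5, a secreted Wnt inhibitor, by 4.48. Eva1a, Arhgef19, Paqr6 and Greb1 completed the set, with log2 fold changes of 4.82, 4.77, 4.45 and 4.34.

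The 12 largest falls held genes of immune cells and of neurons. Ptprc (CD45), Robo3, Cdh15 and Nfam1 had no count in any sorted library, against 77, 72, 50 and 36 counts over the presort libraries. With the limit of 3 counts over the 4 sorted libraries that a count of 0 allows, Ptprc was at least 54.6-fold lower, Robo3 at least 51.1-fold, Cdh15 at least 35.5-fold and Nfam1 at least 25.5-fold. The deep presort 29 held 67, 60, 40 and 26 of these presort counts in the same order, so the limits weight that library. Every presort library held counts of each of these genes. The choice of genes without overlap required this, as no sorted library had a count, so it is no separate check. Robo3 is an axon guidance receptor, Cdh15 a cadherin and Nfam1 an immune receptor. Laptm5, a lysosomal protein of immune cells, had 0, 0, 0 and 0.309 CPM in sorted nuclei, against 13.5, 65.0, 28.1 and 46.1 CPM in presort nuclei, a pooled ratio of 255-fold (45.0 to 10169), and Siglech a pooled ratio of 131-fold (35.5 to 1093). Mir124a-1hg, a host transcript of the neuronal microRNA miR-124, had 21.7, 23.4, 29.8 and 11.1 CPM in sorted nuclei, against 913, 1053, 712 and 1023 CPM in presort nuclei. This was a log2 fold change of -5.32 ± 0.33 (SE), adjusted p = 2.14e-09. Xkr7 and Oprd1, the delta opioid receptor, were 91.5-fold (15.6 to 3697) and 45.8-fold (11.9 to 389.9) lower as pooled ratios. The pooled ratios likewise weight presort 29. It held 92 of 120 presort counts of Laptm5, 91 of 123 of Siglech, 33 of 43 of Xkr7 and 32 of 43 of Oprd1. Mageb16, Slc52a3, a riboflavin transporter, and Mirt1 had log2 fold changes of -5.18, -5.16 and -5.11.

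The same lists were followed in the sorts of the other lines, in a fit of all 24 nuclear libraries. Sorted oligodendrocyte 36 stood apart there, with 7674 genes detected against 15968 to 16575 in the other sorted libraries of the neuron and oligodendrocyte lines. Its chi-square per degree of freedom against its own group was 86.8 to 96.1, against 7.75 to 25.7 among the other 3. Values without it are given below for the astrocyte, neuron and oligodendrocyte lists, for the genes named by their difference between lines, and for the genes changed in all lines. Group means in CPM include it. Of 126 astrocyte-list genes tested there, 102 rose more in the astrocyte line than in the mean of the other lines and none less, against 7.42% of 12171 genes higher and 6.29% lower in that test. The median log2 fold change of these genes was 2.72 in the astrocyte line, -1.69 in the neuron line and -1.48 in the oligodendrocyte line, against -0.08, 0.04 and -0.14 over all genes tested. Over all genes 6.7% were higher and 10.8% lower in the astrocyte line in this fit. In the neuron line 57 of them were lower and 0 higher, against 4.4% and 0.14% of all genes tested. In the oligodendrocyte line 56 were lower and 16 higher, against 12.8% and 12.4%. Genes of the 6 neuron lists had medians of -1.76 in the astrocyte line, 0.28 in the neuron line and -1.5 in the oligodendrocyte line. The oligodendrocyte list had medians of -2.16, -3.16 and 3.95 in the same order of lines. Without sorted oligodendrocyte 36 the medians were -1.65, 0.34 and -1.35 for the neuron lists, and -2.05, -3.12 and 3.76 for the oligodendrocyte list. Without sorted oligodendrocyte 36, 104 of 113 tested astrocyte-list genes rose more in the astrocyte line and 0 less, and 1173 of 8285 genes did so in all, with 1093 less. The medians of the astrocyte lists were then 3.05 in the astrocyte line, -1.70 in the neuron line and -1.40 in the oligodendrocyte line. In the oligodendrocyte line 57 of these 113 genes were then lower and 14 higher, against 1350 and 1285 of all 8285 genes tested. In the neuron line 66 of the 113 were lower and 1 higher, against 699 and 291 of the 8285.

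**Figure D5:**
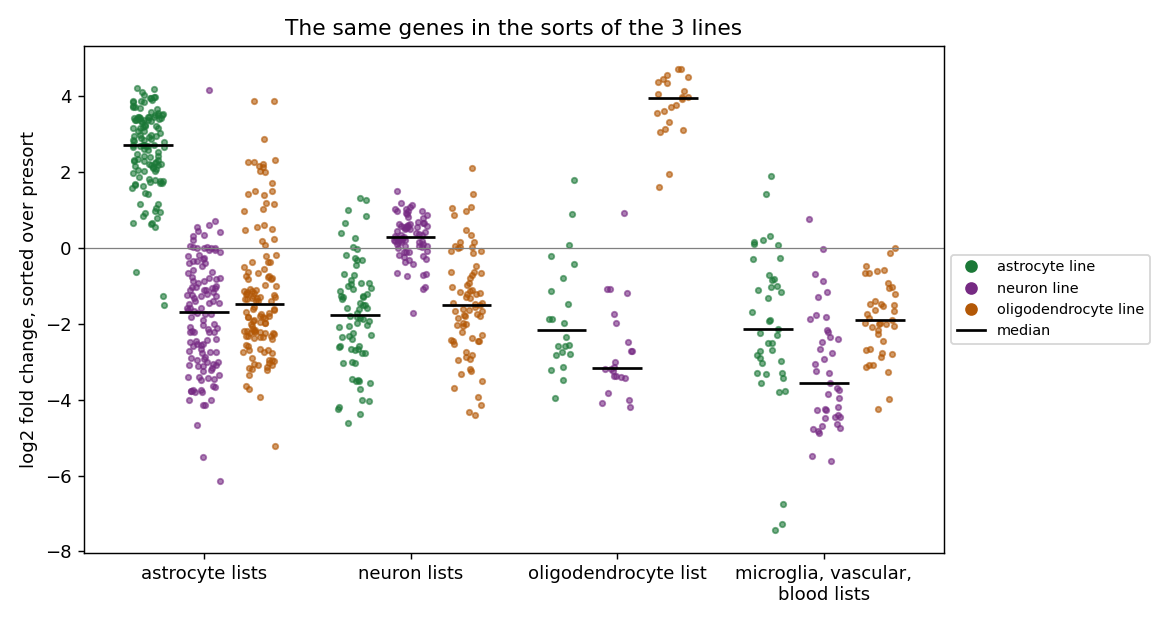
Log2 fold change, sorted over presort nuclei, of list genes in the astrocyte, neuron and oligodendrocyte lines (points are genes, black lines medians) from the fit of 24 libraries. Astrocyte-list genes have a median of 2.72 in the astrocyte line and medians below 0 in both other lines, and microglia, vascular and blood genes have medians below 0 in all 3.

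Among genes whose change in the astrocyte line exceeded the mean of the other lines, Cyp4f15 had the smallest relative error of the 8 largest. It averaged 152 CPM in sorted and 10.6 CPM in presort nuclei of the astrocyte line, 1.08 and 11 CPM in the neuron line, and 0.621 and 13.6 CPM in the oligodendrocyte line. The log2 difference between the astrocyte line and the others was 7.62 ± 0.79 (SE, edgeR, adjusted p = 9.34e-08). Fxyd3, of a family that regulates the sodium pump, averaged 76.0 and 7.31 CPM in the astrocyte line, against 0.104 and 9.06 CPM in the neuron line and 2.01 and 17.8 CPM in the oligodendrocyte line (sorted before presort in each). Its log2 difference was 7.62 ± 0.88 (adjusted p = 4.28e-07). Nat8 averaged 42.9 and 1.69 CPM, against 0.104 and 6.48 CPM and 0.186 and 2.88 CPM in the same order. Aqp9, Oaf and Gli1 averaged 0 CPM in the sorted neuron line, and Ttpa, which carries vitamin E, averaged 0 CPM in the sorted oligodendrocyte line. In the sorted astrocyte line they averaged 31.8 (Aqp9), 43.2 (Oaf), 49.9 (Gli1) and 20.6 CPM (Ttpa). Kirrel2 averaged 23.9 CPM in sorted and 0.153 CPM in presort nuclei of the astrocyte line. Its call was lost without presort neuron library 1 or presort oligodendrocyte library 35, and that of Aqp9 without presort oligodendrocyte library 9. Without sorted oligodendrocyte 36, Aqp9, Ttpa and Kirrel2 were not tested and the other 5 of these 8 genes were again called.

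In the other direction, St18, a zinc finger factor, averaged 14.1 CPM in sorted and 288 CPM in presort nuclei of the astrocyte line, against 439 and 259 CPM in the neuron line and 766 and 309 CPM in the oligodendrocyte line. Its log2 difference was -5.39 ± 0.43 (SE, adjusted p = 1.68e-09). Tmeff2, a transmembrane protein with follistatin domains, averaged 11.9 and 183 CPM in the astrocyte line and 1738 and 172 CPM in the oligodendrocyte line, a log2 difference of -5.74 ± 0.60 (adjusted p = 9.91e-08). Frmd5, Jakmip3 and Grhl2, a grainyhead-like factor, differed by -5.24, -5.16 and -5.26. Robo3, at 0 CPM in sorted nuclei of the astrocyte line, averaged 10.8 CPM in sorted and 1.89 CPM in presort nuclei of the neuron line, and 1.26 and 14.7 CPM in the oligodendrocyte line, where it was also lower (adjusted p = 0.0174). Cdh15, likewise at 0 CPM in sorted nuclei of the astrocyte line, averaged 32.7 and 21.6 CPM in the neuron line and 0.527 and 15.7 CPM in the oligodendrocyte line, where it was also lower (adjusted p = 0.00162). Against the oligodendrocyte line alone the difference of Cdh15 was not called (adjusted p = 0.152). Speer4a belongs to a family of near-identical copies, so its counts, 3.14 CPM in sorted and 30.4 CPM in presort nuclei, are uncertain.

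Some genes fell in the sort of each line. In the fit of 24 libraries 19 genes were lower in sorted nuclei of all 3 lines, which is 1.44% of the 1315 genes lower in the astrocyte line, 3.55% of the 535 in the neuron line and 1.22% of the 1552 in the oligodendrocyte line. They include 5 of 15 tested endothelial genes and 3 of 14 mural and fibroblast genes, against 19 of all 12171 genes tested. Of the other lists, 2 of 14 microglia, 1 of 5 blood cell and 1 of 12 oligodendrocyte precursor genes were among them. Flt1 averaged 7.93 CPM in sorted and 100.03 CPM in presort nuclei of the astrocyte line, 1.25 and 28.9 CPM in the neuron line, and 10.3 and 100.2 CPM in the oligodendrocyte line. Vwf, the von Willebrand factor of endothelium, averaged 6.28 and 53.8 CPM in the astrocyte line. Without sorted oligodendrocyte 36 the number lower in all 3 lines was again 19, of 8285 genes tested. The number higher in all 3 lines was 0 of 12171 with that library and 5 of 8285 without it, and the number higher in the neuron line was 17 with it and 291 without it. The lines share no libraries.

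Males and females gave like directions for the genes named first. Fgfr3 rose by 4.16 in males alone and 3.70 in females alone, Aldh1l1 by 3.42 and 3.29, and GFP by 2.72 and 2.29, each with an adjusted p under 0.05 in both (edgeR, 2 sorted and 2 presort libraries per sex). Meg3 fell by 4.32 in males and 4.94 in females, and Cbln3 by 4.17 and 4.22. Ttr rose by 2.78 in males (adjusted p = 0.034) and 3.19 in females (adjusted p = 1.05e-05). In total 726 genes were higher and 802 lower in males, and 1154 higher and 1448 lower in females. The difference between the sexes itself, male minus female, passed for 0 of 12668 genes with edgeR (479 at an unadjusted p under 0.05) and for 0 with DESeq2. With neighbouring title numbers as a block 3 genes were higher and 1 lower. The titles number the male libraries 5 to 8 and the female libraries 29 to 32, so sex and any run that these numbers mark cannot be told apart.

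Before sorting, nuclei of the astrocyte line were not distinguishable from those of the other lines at this depth. Of 6049 genes tested, 0 passed with edgeR (148 at an unadjusted p under 0.05) and 0 with DESeq2. GFP averaged 106 ± 25.4 CPM in presort nuclei of the astrocyte line (SD, n = 4) and 147 ± 87.8 CPM in those of the other lines (n = 8), an adjusted p of 0.999. Slc1a3 averaged 191 ± 41.0 and 288 ± 91.2 CPM in the same groups, and Meg3 7742 ± 1526 and 5846 ± 1053 CPM.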

How the data were processed

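Nuclear RNA of whole mouse brain was treated with DNase, cleaned on columns and amplified with a NuGEN kit (Ovation RNA-seq V2), per the labels' protocols. The deposited table holds raw counts per gene for 27501 entries. The submitters' processing notes name Trimmomatic, STAR, Bowtie2, bedtools and edgeR, without roles. The genome build and the use of strand in counting are not given there, so overlapping genes cannot be told apart. Symbols were matched to 26495 of the entries.

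Genes passing edgeR's filterByExpr (minimum count 10, by group) were tested with edgeR 4.0.16 (R 4.3.3) by the quasi-likelihood F test, two-sided, with TMM factors and Benjamini-Hochberg adjustment over all genes tested. This was done for the 8 libraries, for the 24 nuclear libraries with a contrast between lines, for the interaction of sex and sorting, and for the 12 presort libraries. SE is the log2 fold change over the root of F. The members and the gene lists were chosen with earlier results of these data known. Genes named are members of those lists, or the 12 (between lines, 8) largest fold changes up and down among genes with an adjusted p under 0.05, groups that do not overlap, at least 10 CPM in the higher group and a symbol other than a gene model name. Among the lists' members, examples were taken by small adjusted p or as exceptions, and exceptions were chosen after their values were seen. Intervals of pooled ratios are exact and, like limits from a count of 0, cover counting error only, as reads carry no molecular identifiers. Libraries of 1 group differed beyond sampling noise in every pair (chi-square per degree of freedom of at least 1.97). Alternatives changed the scaling, filter, tool, depth, block and libraries. Scripts were tested on simulated counts. The list names Dlx6os1, Kcnq1ot1, Lhfpl3, Pantr1, Peg13, Rmst, Scn2a1, Slc18a3, Snhg1, mt-Rnr1 and mt-Rnr2 were not analysed here, and a few members of the lists are counted but not reported by name here.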

Additional observations from a re-analysis of the deposited data

Results flagged for a closer look

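The 4 libraries of each group were searched for a value standing apart by Dixon's criterion at the 95% level, the gap to the nearest value over the range. It was met in 26 of 362 cases (7.18%). The rate of about 1 in 20 that chance gives applies to continuous values. It cannot be compared here, because any count meets the criterion where the other libraries of the group have none. This was so for Laptm5 and Oprd1 in sorted 32, Siglech and Xkr7 in sorted 6, and Nat8 in presort 5. It was also so for Aqp9, Dao, Kirrel2 and Ttpa in presort 29. Laptm5 rested on 1 count and Siglech on 2. The cause of the other cases was not tested.

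Among sorted libraries, sorted 32 stood apart with 1126 CPM of Map2, 179 CPM of Otx2, 17 CPM of Ttpa, 0.309 CPM of Laptm5, 0.617 CPM of Oprd1 and a summed Bergmann glia and hindbrain list of 9253 CPM. Sorted 30, the shallowest library, stood apart with 81.9 CPM of Pdgfra, 0 CPM of Slc1a6 and a summed ependymal cilia list of 149 CPM. Sorted 6 did so with 0.853 CPM of Siglech and 0.426 CPM of Xkr7.

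Among presort libraries, presort 29, the deepest, stood apart with 1.83 CPM of Aqp9, 1.53 CPM of Dao, 155 CPM of Grin2c, 0.611 CPM of Kirrel2, 41.2 CPM of Lss, 1868 CPM of Rian, 102.6 CPM of Slc6a11, 1.83 CPM of Ttpa and a summed astrocyte transcription factor list of 2483 CPM. Presort 7 did so with 316 CPM of Aldoc and 4.33 CPM of Ppp1r3g, presort 5 with 27.1 CPM of Cdh15, 6.76 CPM of Nat8 and 1177 CPM of Syt1, and presort 31 with 0 CPM of S1pr3.

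The sorted-to-presort difference of the astrocyte line was larger than the mean of the other lines, by the test of that difference in edgeR, for Nat8 (10.78 on the log2 scale), Aqp9 (9.15), Ttpa (8.78), Oaf (8.07), Kirrel2 (7.85), Gli1 (7.73), Cyp4f15 (7.62) and Fxyd3 (7.62). It was smaller for Robo3 (-7.42), Tmeff2 (-5.74), Cdh15 (-5.52), Speer4a (-5.43), St18 (-5.39), Grhl2 (-5.26), Frmd5 (-5.24) and Jakmip3 (-5.16). Fitted values of Aqp9, Oaf, Gli1, Ttpa, Robo3 and Cdh15, each at 0 in 1 sorted group, depend on the prior count.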

How the results depend on the processing

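Among the single genes followed, no called change reversed its direction under the alternatives run. Other called genes were not checked for this. For sorted against presort nuclei, thinning all libraries to equal depth gave 629 genes higher and 598 lower, males alone gave 726 and 802, and edgeR's test against a 2-fold threshold gave 675 and 920. Without a filter on low counts 2558 genes were lower, and with all 24 libraries in the fit 816 were higher. Leaving out 1 library at a time gave 893 to 1847 genes higher and 943 to 1841 lower; without sorted 6, sorted 8, sorted 32 or presort 29 fewer genes could be tested. DESeq2 gave 1426 and 1537, and leaving out presort 29 and sorted 30 together, chosen after the depths were seen, gave 1258 and 1206. More genes were higher than lower in that run, after thinning, and without sorted 30 alone (1847 and 1823). In the main run (1514 and 1679) and every other alternative more were lower. For the astrocyte line against the other lines, thinning gave 586 genes higher and 384 lower, and leaving out 1 library gave 637 to 1173 and 461 to 1093, with both upper ends without sorted oligodendrocyte 36 and both lower ends without sorted astrocyte 32. Without sorted astrocyte 6 or presort astrocyte 29, 493 and 492 were lower. RLE in place of TMM factors moved the median of all genes in this comparison to -0.03, against -0.17. For the difference between males and females, no filter gave 2 genes higher, and leaving out 1 library gave 0 to 2 higher and 0 lower. The presort comparison stayed at 0 calls.

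The replicate block by neighbouring title numbers gave 1366 genes higher and 1607 lower for sorted against presort nuclei, 798 and 596 for the astrocyte line against the others, and 3 higher and 1 lower for the difference between the sexes. Deviations of neighbours from their group means correlated at 0.312 (sorted 6 with presort 5), 0.0874 (8 with 7), 0.162 (30 with 29) and 0.159 (32 with 31). Sorted 6, 30 and 32 each correlated most with their neighbour, the closest rival being presort 7 for sorted 32, at 0.118. Sorted 8 correlated more with presort 29, at 0.165. The pairing of the numbers was not tested, and the main test treats the 8 libraries as independent.

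Over all alternatives, the single genes followed for sorted against presort nuclei lost their call in 111 cases, gained one in 11 and kept their side of the threshold in 2746. Depth limits the presort level of rare transcripts, where 1 count in presort 5 equals 6.76 CPM.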
